A study of Mus musculus with 8 samples.

Results

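Spi1 and Csf1r are a transcription factor gene and a receptor gene that mark macrophages, and their acetylated histone H3 (H3ac) was examined here in a mouse macrophage-like line. The lists of peaks hold no gene names, so the loci were taken as fixed windows of the mouse genome build GRCm39. The Spi1 window, which includes the gene's upstream enhancer, ran on chromosome 2 from 90895000 to 90950000. The Csf1r window ran on chromosome 18 from 61230000 to 61270000. Peaks of 4 libraries were merged wherever they overlapped by at least 1 bp, and every merged region that touched a window was kept. This gave 33 regions out of 81544 in the genome, 19 at Spi1 and 14 at Csf1r. They are numbered from low to high coordinate within each window.

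The cells were RAW 264.7, an established mouse line of macrophage character that grows from a tumour and so is no primary macrophage, exposed for 48 h. The groups are labelled Gel and CuNZ@Gel, in a series on a nanozyme hydrogel for wounds of diabetes, and the labels do not spell out CuNZ. Each group had 2 chromatin immunoprecipitation libraries made with an antibody to acetylated H3. Separate cultures are not stated for them, and p-values then measure only a spread that may be technical. The protocol text shared by all samples mentions extracts of CuNZ@Gel alone, so what the Gel cells received is known from a treatment label only. No genotype, added stimulus or untreated cells are named in the labels.

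Spi1 encodes PU.1, an ETS-family transcription factor required for the formation of macrophages and other myeloid cells, whose own gene is kept active by an upstream regulatory element that PU.1 binds. Csf1r encodes the receptor for the growth factors CSF1 and IL-34, on which macrophage survival depends, and is itself a target of PU.1. Its known control regions are a promoter and an enhancer in an early intron. Acetylated H3 is found at active promoters and enhancers.

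The CuNZ@Gel lists were shorter than those of Gel, and their libraries appeared shallower by background. The 2 Gel lists held 58612 and 60483 peaks, the 2 CuNZ@Gel lists 40075 and 34693. No read totals were used here. The background of a list, worked back from the deposited fold and p, stands in for depth: 4.62 and 4.28 fragments per Gel library, 3.45 and 2.46 per CuNZ@Gel library. Depth, judged by this background alone, therefore moved with the treatment in every comparison below, and its part in the widths of peaks was not tested. With 2 libraries against 2, an exact two-sided permutation test cannot go below p = 0.33.

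Both loci carried strong H3ac in all 4 libraries, and peaks covered less of each window after CuNZ@Gel. In the Spi1 window, 14958 bp (Gel replicate 1) and 16100 bp (Gel replicate 2) lay under peaks, against 10854 bp (CuNZ@Gel replicate 1) and 10503 bp (CuNZ@Gel replicate 2). Paired values below keep this order, replicate 1 before replicate 2. The values did not overlap between groups. The means were 15529 ± 808 bp and 10678.5 ± 248 bp (SD, n = 2), and the exact two-sided permutation p was 0.33. In the Csf1r window, the covered bases were 8649 and 9533 in Gel and 6120 and 4611 in CuNZ@Gel. These groups did not overlap either, with means of 9091 ± 625 and 5365.5 ± 1067 bp (SD, n = 2) and an exact permutation p of 0.33. Over the whole lists, peaks covered 42.3 and 43.2 Mb in Gel and 26.2 and 22.2 Mb in CuNZ@Gel. The lower cover was thus found genome-wide and is not particular to these windows. With each list reduced to its 34693 best-scoring peaks, the length of the shortest, the difference was smaller, -3038.5 in place of -4850.5 bp at Spi1 and -1562 in place of -3725.5 bp at Csf1r.

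Peak numbers separated the groups less clearly than covered bases. The Spi1 window held 13 and 16 peaks in Gel and 14 and 9 in CuNZ@Gel, so the groups overlapped (exact permutation p = 0.67). The Csf1r window held 11 and 10 peaks in Gel and 9 and 6 in CuNZ@Gel (exact permutation p = 0.33). With lists of equal length the difference turned to the other side, with 6 and 10 against 11 and 9 peaks at Spi1 and 3 and 3 against 5 and 6 at Csf1r. Many peaks were weak. Fold enrichment over background, the authors' own value for each peak, was under 5 for 9 and 13 of the Gel peaks and 8 and 3 of the CuNZ@Gel peaks at Spi1. At Csf1r this held for 9 and 7 Gel peaks and 7 and 5 CuNZ@Gel peaks.

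**Figure D1:**
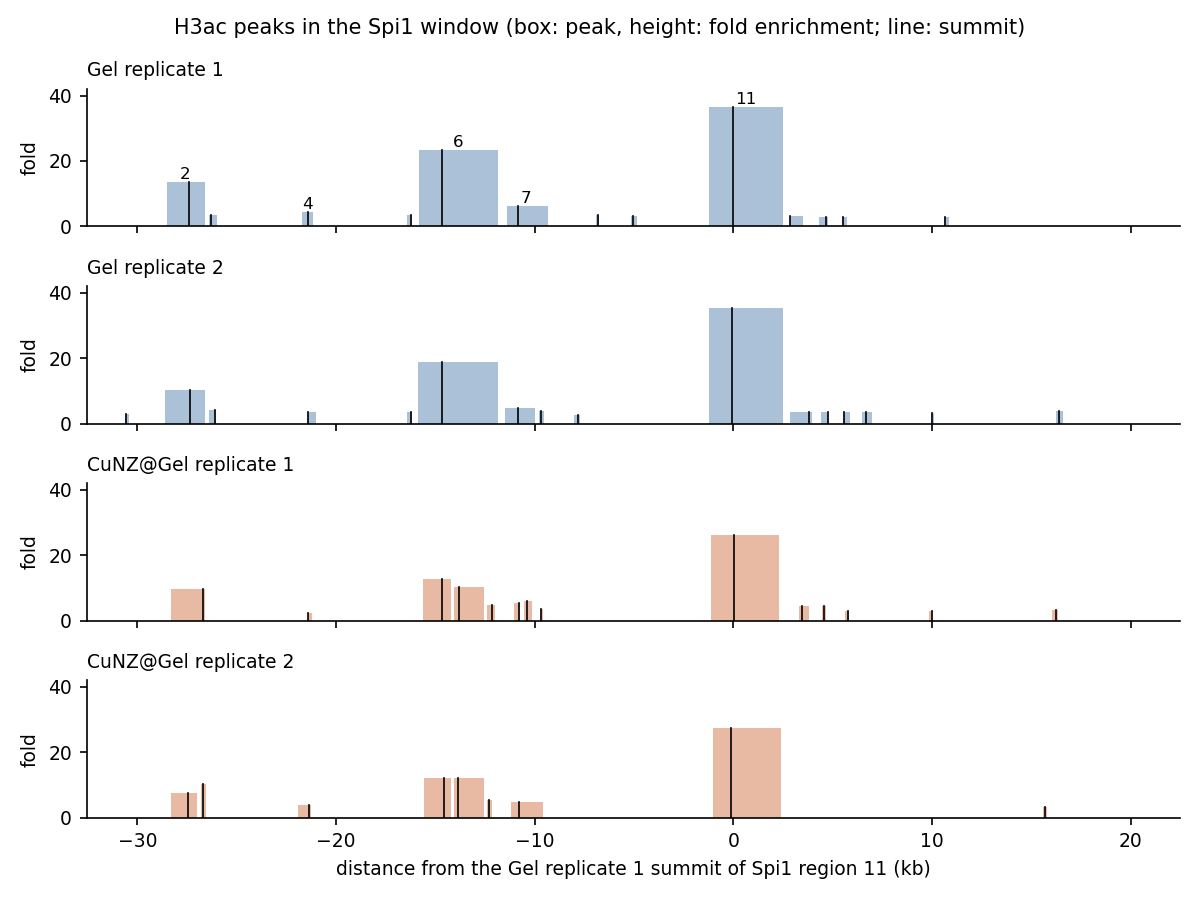
Peaks of the Spi1 window in the 4 libraries, by distance in kb from the Gel replicate 1 summit of region 11; box width is the peak, box height its fold enrichment, the line its summit, and numbers name the 5 regions with a peak in all 4 libraries. Region 11 is the highest in each library, and region 6 is 1 peak in each Gel library and 3 peaks in each CuNZ@Gel library.

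Which region is the Spi1 promoter and which the enhancer was not assigned from an annotation, since the only gene table used here is of another build, GRCm38.p6, and coordinates were not converted. In that table Spi1 lies between Slc39a13 on the low-coordinate side and Mybpc3 on the other, and Csf1r lies between Pdgfrb and Hmgxb3. As background, Spi1 is read toward higher coordinates, so an upstream element lies on the low-coordinate side of its start. The regions are therefore described by number and position. In the Spi1 window, 2 regions stood out by width and fold, regions 6 and 11. Their strongest summits were 14690 and 14581 bp apart with Gel and 14689 and 14449 bp apart with CuNZ@Gel, with region 6 on the low-coordinate side.

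Region 11, on chromosome 2 from 90926293 to 90930045, was the strongest of the Spi1 window in each library and kept most of its width. It was a single peak throughout, 3729 and 3753 bp wide with Gel and 3413 and 3431 bp wide with CuNZ@Gel. The CuNZ@Gel peaks were narrower than both Gel peaks and lay inside them. The means were 3741 ± 17.0 and 3422 ± 12.7 bp (SD, n = 2), a ratio of 0.915. The fold was 36.5 and 35.3 in Gel and 26.1 and 27.5 in CuNZ@Gel, each relative to its own library.

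The summit of region 11 showed no shift between the groups. It was at 90927546 and 90927446 in Gel and at 90927561 and 90927441 in CuNZ@Gel, a spread of 120 bp over the 4 libraries, with no separation of the groups. Regions of similar Gel fold with a peak in all 4 libraries had a median spread of 41 bp and an upper quartile of 137.5 bp. By score the peak ranked 344 and 252 in the Gel lists and 264 and 148 in the shorter CuNZ@Gel lists. Ranks from lists of unequal length show no change, but they place the region among the strongest peaks of each list. The summit held 204 and 209 fragments in Gel and 119 and 94 in CuNZ@Gel. Divided by the library background, a quantity called summit height here, these were 44.2 and 48.8 against 34.5 and 38.3, and the groups did not overlap. How often heights separate in other regions was not computed.

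Region 6, from 90911652 to 90915706 on chromosome 2, was as broad as region 11 in Gel and was split after CuNZ@Gel. Each Gel library had 1 peak there, of 3969 and 4052 bp. Each CuNZ@Gel library had 3 peaks. They measured 1392, 1473 and 365 bp in replicate 1 and 1335, 1478 and 264 bp in replicate 2. The breaks fell at nearly the same places in both, from 90913326 to 90913496 and from 90914970 to 90915162 in replicate 1, and from 90913328 to 90913493 and from 90914972 to 90915155 in replicate 2. In all, 3230 and 3077 bp were covered in CuNZ@Gel, fewer than in either Gel library. The Gel mean was 4010.5 ± 58.7 bp and the CuNZ@Gel mean 3153.5 ± 108 bp (SD, n = 2), a ratio of 0.786.

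The fold of region 6 was 23.3 and 18.8 in Gel, with summits at 90912856 and 90912865. In CuNZ@Gel replicate 1 the 3 peaks had folds of 12.6, 10.3 and 4.95 and summits at 90912872, 90913713 and 90915413. In CuNZ@Gel replicate 2 the folds were 12.1, 12.1 and 5.50 and the summits at 90912992, 90913663 and 90915229. The strongest summit thus stayed near the Gel position, while the middle peak of CuNZ@Gel replicate 2 equalled the first in fold. Summit height was 28.2 and 25.9 times the library background in Gel and 16.0 and 16.7 times in CuNZ@Gel, with no overlap between groups. The share of other regions with such a separation was not computed.

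A split into 3 was uncommon among regions of this kind, while a split into 2 or more was not. A shared region here is one with a peak in all 4 libraries, and like Gel fold means a mean Gel fold at most 25% above or 20% below. Of 426 shared regions with a single peak in each Gel library, like Gel fold and a mean Gel width within 1.5-fold of region 6, 31.2% had at least 2 peaks in both CuNZ@Gel libraries, and 24, or 5.63%, had at least 3. For region 11, which did not break, 38.5% of 187 such regions had at least 2 peaks in both CuNZ@Gel libraries. These shares are a description without a test.

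Region 2 was the third region of the Spi1 window with a mean Gel fold of at least 10. It lay on chromosome 2 from 90898921 to 90900982, at the end of the window nearest to Slc39a13. Its widths were 1919 and 2056 bp with Gel and 1718 and 1576 bp with CuNZ@Gel, the last as 2 peaks of 1330 and 246 bp. The CuNZ@Gel values were both lower, with means of 1987.5 ± 96.9 and 1647 ± 100.4 bp (SD, n = 2). The fold was 13.5 and 10.2 in Gel, 9.67 in CuNZ@Gel replicate 1, and 7.52 and 10.4 for the peaks of CuNZ@Gel replicate 2.

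The strongest summit of region 2 differed in place between the groups. It was at 90900146 and 90900199 in Gel and at 90900866 and 90900860 in CuNZ@Gel, a spread of 720 bp. The weaker peak of CuNZ@Gel replicate 2 had its summit at 90900115, near the Gel position. In 4233 shared regions of like Gel fold the spread of the strongest summits over the 4 libraries had a median of 171 bp and an upper quartile of 325 bp. Csf1r region 4 had a spread of 234 bp, against a median of 41.5 bp and an upper quartile of 137.75 bp in its like regions. That spread lay between the Gel replicates, with summits at 61239573 and 61239339. The CuNZ@Gel summits, at 61239494 and 61239465, fell between them, so the groups were not separated there. The spreads of 136 bp in region 6 and 120 bp in region 11 were above the medians of 97 and 41 bp and below the upper quartiles of 226 and 137.5 bp. Summit height of region 2 was 16.3 and 14.9 in Gel and 12.2 and 14.2 in CuNZ@Gel.

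Region 7, from 90916045 to 90918204, lies next to region 6 on its high-coordinate side. It was 1 peak of 2037 bp in Gel replicate 1, with a fold of 6.20 and a summit at 90916727. Gel replicate 2 had peaks of 1528 and 251 bp, with folds of 4.85 and 3.78 and summits at 90916693 and 90917872. CuNZ@Gel replicate 1 had 3 peaks of 336, 440 and 164 bp, with folds of 5.40, 5.88 and 3.60 and summits at 90916744, 90917147 and 90917856. CuNZ@Gel replicate 2 had 1 peak of 1596 bp, with a fold of 4.92 and a summit at 90916759. The CuNZ@Gel libraries differed from each other, with 940 and 1596 bp covered, but both were below the 2037 and 1779 bp of Gel. Summit heights overlapped, at 7.37 and 7.002 in Gel and 7.54 and 6.51 in CuNZ@Gel.

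Region 4, from 90905650 to 90906526, was the only shared region of either window whose widths overlapped between groups. It measured 564 and 450 bp with Gel and 225 and 646 bp with CuNZ@Gel. The folds were 4.27 and 3.60 in Gel and 2.47 and 4.05 in CuNZ@Gel. Its summits, at 90906125, 90906132, 90906133 and 90906174, lay close together in all libraries.

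Between the strong Spi1 regions, weak peaks of the Gel libraries mostly had no counterpart after CuNZ@Gel. Region 3, from 90901147 to 90901546, had 396 and 377 bp in Gel, folds of 3.62 and 4.16 and summits at 90901246 and 90901436. Region 5, from 90911095 to 90911377, had 283 and 277 bp, folds of 3.38 and 3.41 and summits at 90911311 and 90911301. Neither had a peak in CuNZ@Gel. Among regions of like fold in both Gel libraries, 42.3% had none for region 3 and 53.3% had none for region 5, so such a loss was common at this strength.

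Beyond region 11 on the high-coordinate side, 3 weak regions had peaks in both Gel libraries and in CuNZ@Gel replicate 1. They had none in CuNZ@Gel replicate 2, the library with the lowest background. Region 12, from 90930366 to 90931492, had 670 and 1127 bp with Gel and 486 bp in CuNZ@Gel replicate 1, with folds of 3.07, 3.60 and 4.50 and summits at 90930395, 90931357 and 90930987. Region 13, from 90931854 to 90932338, had 429, 379 and 172 bp, folds of 2.82, 3.47 and 4.50 and summits at 90932215, 90932279 and 90932125. Region 14, from 90933025 to 90933400, had 247, 333 and 193 bp, folds of 2.82, 3.58 and 2.92 and summits at 90933040, 90933114 and 90933325. Of the regions of like fold in both Gel libraries, between 28.6% and 30.2% had a peak in a single CuNZ@Gel library.

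The other 9 Spi1 regions rested on 1 library or on 1 library of each group. Gel replicate 1 alone had region 9 (181 bp, fold 3.38, summit 90920719), region 10 (304 bp, fold 3.03, summit 90922475) and region 17 (230 bp, fold 2.85, summit 90938168). Gel replicate 2 alone had region 1 (189 bp, fold 2.84, summit 90896999), region 8 (286 bp, fold 2.65, summit 90919706) and region 15 (518 bp, fold 3.60, summit 90934207). CuNZ@Gel replicate 2 alone had region 18 (177 bp, fold 3.18, summit 90943237). Gel replicate 2 and CuNZ@Gel replicate 1 shared region 16, with 178 and 200 bp, folds of 3.22 and 2.83 and summits at 90937539 and 90937524. The same libraries shared region 19, with 346 and 277 bp, folds of 3.78 and 3.37 and summits at 90943921 and 90943795. None of these peaks was reproduced within a group.

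**Figure D2:**
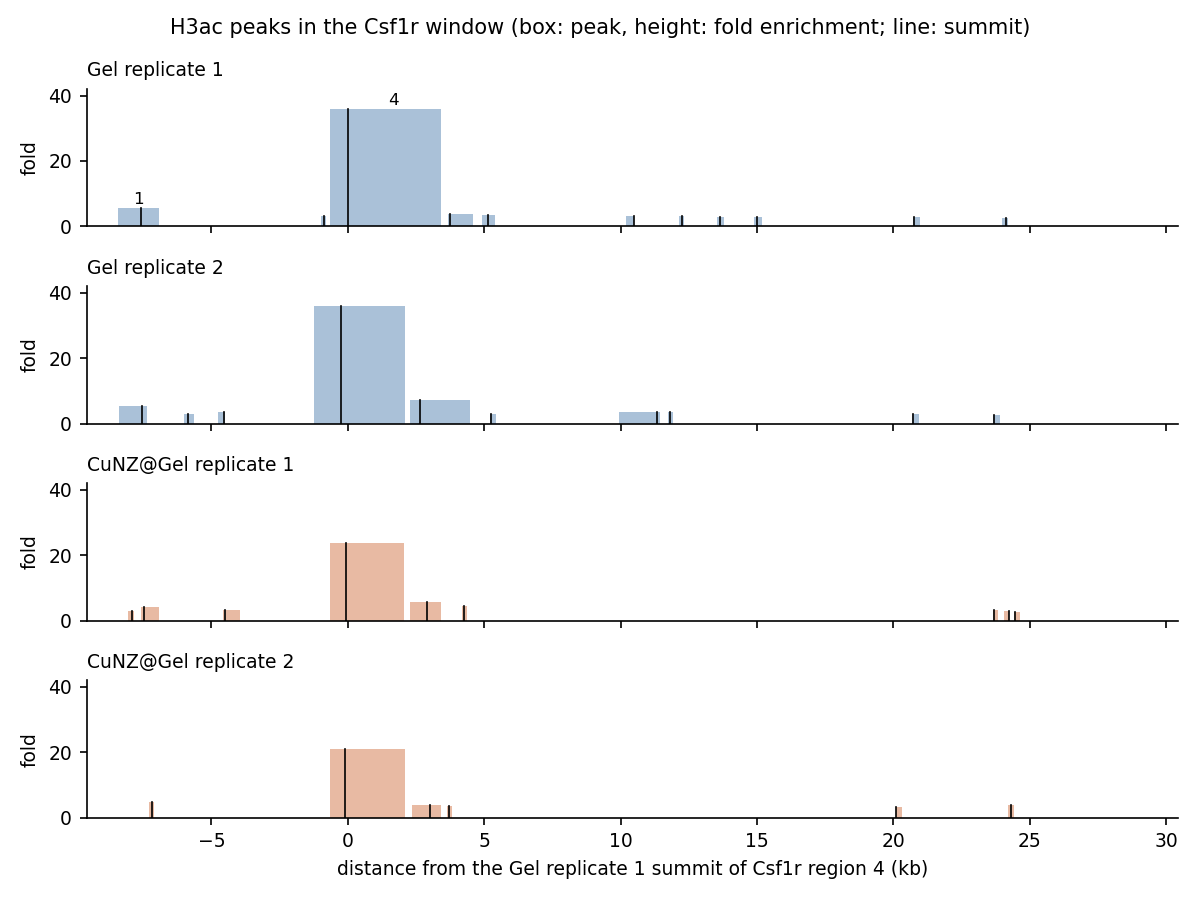
Peaks of the Csf1r window in the 4 libraries, by distance in kb from the Gel replicate 1 summit of region 4; box width is the peak, box height its fold enrichment, the line its summit, and numbers name the 2 regions with a peak in all 4 libraries. Region 4 holds the only peak of each library with a fold over 10, and the weak Gel peaks of regions 5, 6 and 12 have none opposite them in CuNZ@Gel.

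The Csf1r window had a single dominant region, and it was narrower in both CuNZ@Gel libraries. Region 4, on chromosome 18 from 61238353 to 61244175, covered 5168 and 5509 bp with Gel and 3986 and 3996 bp with CuNZ@Gel. The means were 5338.5 ± 241 and 3991 ± 7.07 bp (SD, n = 2), a ratio of 0.748, and the groups did not overlap. Its highest fold was 36.0 in each Gel library and 23.6 and 21.1 in CuNZ@Gel. Summit height was 43.6 and 44.1 in Gel and 30.2 and 29.3 in CuNZ@Gel, from 201, 189, 104 and 72 summit fragments in that order.

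Peaks of all 4 libraries covered region 4 from 61238935 to 61241643, and the differences in width lay outside this stretch. Gel replicate 1 had peaks of 167, 4063 and 938 bp, with folds of 3.14, 36.0 and 3.87 and summits at 61238718, 61239573 and 61243315. Gel replicate 2 had peaks of 3316 and 2193 bp, with folds of 36.0 and 7.19 and summits at 61239339 and 61242213. CuNZ@Gel replicate 1 had peaks of 2715, 1108 and 163 bp, with folds of 23.6, 5.85 and 4.40 and summits at 61239494, 61242492 and 61243851. CuNZ@Gel replicate 2 had peaks of 2720, 1066 and 210 bp, with folds of 21.1, 3.96 and 3.47 and summits at 61239465, 61242601 and 61243285.

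Unlike Spi1 region 6, the break in the Csf1r region was seen in a Gel library too. The main peak ended at 61241668 in Gel replicate 2 and at 61241643 and 61241654 in CuNZ@Gel, while in Gel replicate 1 it ran on to 61242991. The start of the main peak was at 61238929 in Gel replicate 1 and CuNZ@Gel replicate 1, at 61238935 in CuNZ@Gel replicate 2 and further out, at 61238353, in Gel replicate 2. The main peak ranked 365 and 345 by score in the Gel lists and 446 and 485 in the CuNZ@Gel lists.

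Region 1 of the Csf1r window, from 61231146 to 61232653, was the other shared region and had the lowest width ratio of the 7. Gel had 1 peak in each library, of 1508 and 1025 bp, with folds of 5.70 and 5.30 and summits at 61231998 and 61232043. CuNZ@Gel replicate 1 had peaks of 196 and 665 bp, with folds of 2.92 and 4.27 and summits at 61231653 and 61232109. CuNZ@Gel replicate 2 had 1 peak of 177 bp, with a fold of 4.80 and a summit at 61232391. Both CuNZ@Gel values were below both Gel values, with means of 1266.5 ± 342 and 519 ± 484 bp (SD, n = 2), and the replicates of each group lay far apart. Summit heights overlapped, at 6.72 and 6.30 against 5.22 and 6.51.

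All 3 weak Csf1r regions that both Gel libraries shared were without a peak in CuNZ@Gel. Region 5, from 61244494 to 61245009, had 487 and 217 bp, folds of 3.56 and 2.91 and summits at 61244727 and 61244824. Region 6, from 61249516 to 61251011, had 305 and 1496 bp, folds of 3.03 and 3.41 and summits at 61250059 and 61250917. Region 12, from 61260242 to 61260540, had 239 and 259 bp, folds of 2.85 and 3.03 and summits at 61260320 and 61260280. Of like regions in both Gel libraries, 56.7%, 57.3% and 63.1% had no CuNZ@Gel peak either.

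Region 14, from 61263572 to 61264203, was the only region of either window with peaks in both CuNZ@Gel libraries and not in both Gel libraries. It had 222 bp in Gel replicate 1, with a fold of 2.49 and a summit at 61263723. CuNZ@Gel replicate 1 had peaks of 207 and 215 bp, with folds of 2.92 and 2.70 and summits at 61263815 and 61264037. CuNZ@Gel replicate 2 had 1 peak of 208 bp, with a fold of 3.96 and a summit at 61263888. Each fold is below the median of its list, 3.92 in Gel replicate 1, 4.50 in CuNZ@Gel replicate 1 and 4.92 in CuNZ@Gel replicate 2.

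The remaining Csf1r peaks were seen in 1 library or in 1 of each group. Gel replicate 1 alone had region 8 (176 bp, fold 3.21, summit 61251814), region 9 (256 bp, fold 2.85, summit 61253220) and region 10 (288 bp, fold 2.85, summit 61254579). Gel replicate 2 alone had region 2 (356 bp, fold 3.03, summit 61233711) and region 7 (172 bp, fold 3.41, summit 61251397). CuNZ@Gel replicate 2 alone had region 11 (230 bp, fold 3.18, summit 61259681). Region 3 was shared by Gel replicate 2 and CuNZ@Gel replicate 1, with 241 and 657 bp, folds of 3.41 and 3.37 and summits at 61235034 and 61235083. Region 13 was shared by the same libraries, with 258 and 194 bp, folds of 2.65 and 3.15 and summits at 61263251 and 61263276.

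Read over both windows, peak loss and narrowing were near the genome-wide level. Among 15 regions present in both Gel libraries, 7 (46.7%) had peaks in both CuNZ@Gel libraries, where 55.7% of all such regions did. No CuNZ@Gel peak was found for 5 of the 15 (33.3%), against 24.9% of all. Of the 7 shared regions, 6 (85.7%) had both CuNZ@Gel widths below both Gel widths, where the share over 21909 shared regions was 74.5%, and 0 were wider in both, where it was 1.26%. These counts carry no test.

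**Figure D3:**
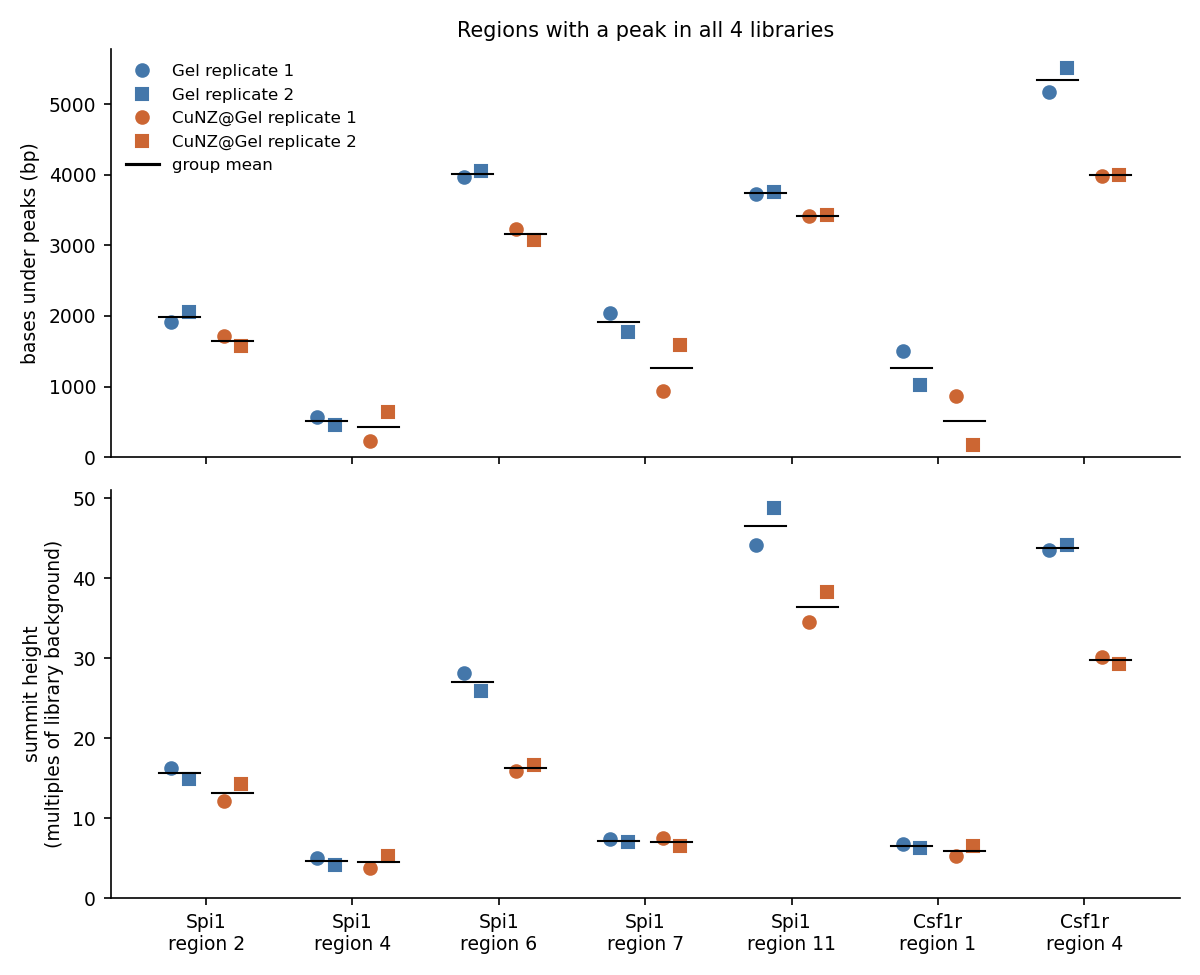
Bases under peaks (top, bp) and summit height in multiples of the library background (bottom) in the 7 regions with a peak in all 4 libraries; points are libraries and bars are group means. Widths of the groups overlap only in Spi1 region 4, while summit heights also overlap in Spi1 region 7 and Csf1r region 1. Over all 21909 shared regions the median CuNZ@Gel to Gel height ratio was 0.831. The share of them with separate heights was not computed, so the height pattern has no background.

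Set beside shared regions of like Gel fold, the strongest regions of the windows differed among themselves. For Spi1 region 11 the CuNZ@Gel to Gel ratio of width was 0.915, where 659 shared regions of like Gel fold had a median of 0.818 and quartiles of 0.732 and 0.887, and 82.5% of them had a lower ratio. Its summit height ratio of 0.783 also lay above their upper quartile of 0.765. For Spi1 region 6 the width ratio of 0.786 was close to the median of 0.793 over 2628 like regions. Its summit height ratio of 0.604 lay below their lower quartile of 0.662, and 11.1% of them had a lower one. The Csf1r region 4 ratios, 0.748 for width and 0.678 for height, lay within the quartiles of its 658 like regions, 0.732 to 0.887 and 0.643 to 0.765.

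The weaker shared regions showed both ends of the range. Spi1 region 4 had a width ratio of 0.859, above the upper quartile of 0.809 of its like regions, and Csf1r region 1 had 0.410, below their lower quartile of 0.491. Both rest on CuNZ@Gel libraries that lay far apart. Their like regions are only those that had peaks in both CuNZ@Gel libraries. Of all regions of like fold in both Gel libraries, these were 25.7% for Spi1 region 4 and 66.3% for Csf1r region 1. Spi1 regions 2 and 7 had width ratios of 0.829 and 0.665, within the quartiles of their like regions. Only region 11 exceeded the upper quartile for both width and height. These positions are descriptions, and like regions were chosen on the same Gel folds that the ratios of height use.

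**Figure D4:**
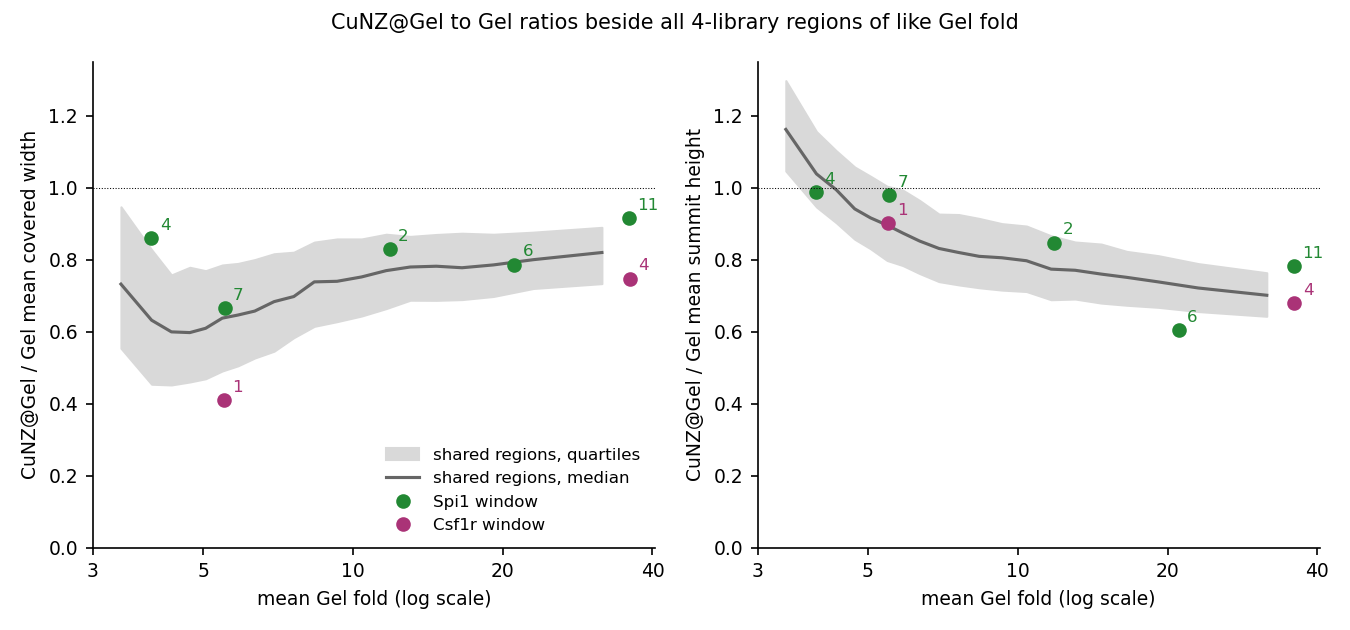
Ratio of CuNZ@Gel to Gel means for covered width (left) and summit height (right) against the mean Gel fold (log scale); the line and band are the median and quartiles, in 20 groups by fold, of 21909 regions with a peak in all 4 libraries, and numbered points are the 7 regions of the windows. The band ends at a Gel fold of 31.7, short of Spi1 region 11 and Csf1r region 4. Spi1 region 11 lies above the upper quartiles at that end, 0.890 for width and 0.764 for height. Spi1 region 6 lies below the band for height only.

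Strong regions were also compared with each other within each library. Both values then share its depth, but depth need not cancel, and its part was not tested. Over shared regions the CuNZ@Gel to Gel ratios varied with Gel fold. The median width ratio was 0.769 in the group with a median Gel fold of 11.7 and 0.820 in that of 31.7. The median height ratios were 0.774 and 0.701. The width of Spi1 region 6 over that of region 11 was 1.06 and 1.08 in Gel and 0.946 and 0.897 in CuNZ@Gel. By covered bases, region 6 was thus the wider in both Gel libraries and the narrower in both CuNZ@Gel libraries. Covered bases leave out the gaps between its CuNZ@Gel peaks, 171 and 193 bp in replicate 1 and 166 and 184 bp in replicate 2. With these gaps counted, region 6 was wider than region 11 in CuNZ@Gel replicate 1 and nearly as wide in replicate 2. The means were 1.07 ± 0.0108 and 0.922 ± 0.0350 (SD, n = 2). The ratio of their folds was 0.639 and 0.533 in Gel and 0.482 and 0.442 in CuNZ@Gel, also without overlap.

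Relative to Csf1r region 4, Spi1 region 11 covered more bases with CuNZ@Gel than with Gel, though region 11 itself was narrower. Its covered width over that of Csf1r region 4 was 0.722 and 0.681 in Gel and 0.856 and 0.859 in CuNZ@Gel, with means of 0.701 ± 0.0285 and 0.857 ± 0.00167 (SD, n = 2). Gaps between the peaks of Csf1r region 4 are left out, 171 and 246 bp in Gel replicate 1 and 190 bp in Gel replicate 2. In CuNZ@Gel they were 226 and 801 bp in replicate 1 and 285 and 188 bp in replicate 2. With these gaps counted, the groups lay closer together. The fold ratio was 1.01 and 0.982 in Gel and 1.11 and 1.30 in CuNZ@Gel. By contrast, the fold of Spi1 region 6 over that of Csf1r region 4 overlapped, at 0.649 and 0.524 in Gel and 0.533 and 0.575 in CuNZ@Gel. Over the 12 such ratios of 4 strong regions, the groups did not overlap in 10. The ratios reuse the same regions, and the share among other pairs of shared regions was not computed, so this count has no background. The exact permutation p was 0.33 for each of those 10, with a Benjamini-Hochberg value of 0.4, so none passed a threshold that the design could not reach.

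**Figure D5:**
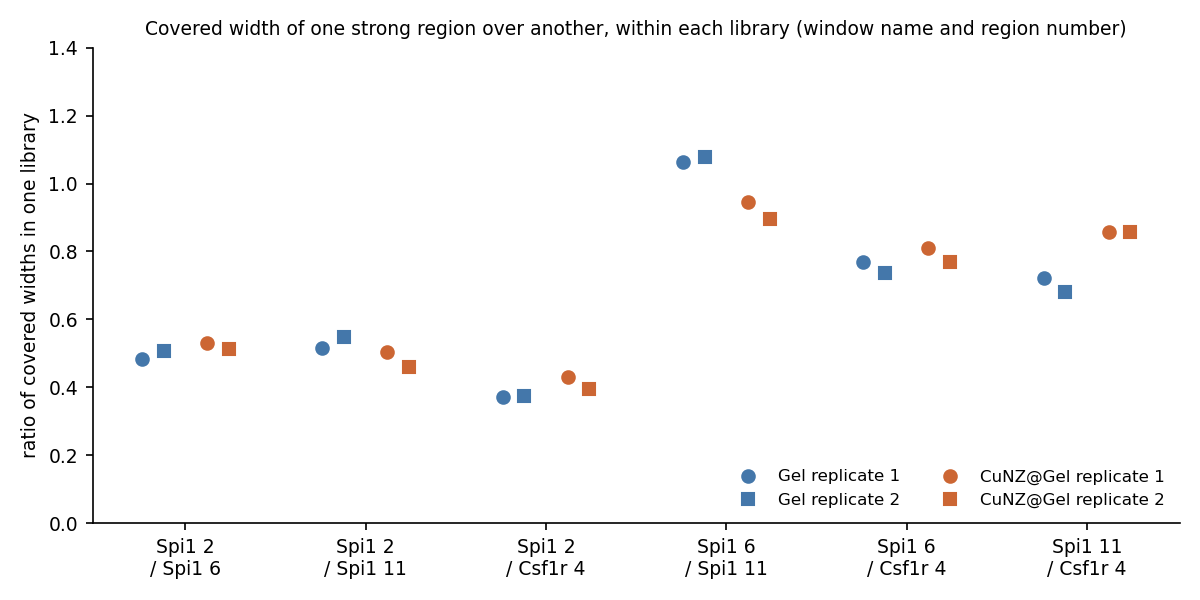
Covered width of one strong region divided by that of another in the same library, for the 6 pairs of the 4 regions with a mean Gel fold of at least 10; points are libraries. The Spi1 region 6 to region 11 ratio is above 1 in both Gel libraries and below 1 in both CuNZ@Gel libraries. Gaps between the peaks of a region, as in Spi1 region 6 with CuNZ@Gel and Csf1r region 4 in all libraries, are not counted in its width.

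Tested with limma across 43964 regions with a peak in at least 2 libraries, no region of either window passed an adjusted p of 0.05, and neither did any other. The calls were 0 lower and 0 higher (0% each), while 19298 regions, or 43.9%, had an unadjusted p under 0.05. Of the 33 regions of the windows 20 entered the test. A region seen in both Gel libraries alone enters only through its Gel values, so their joint direction is no support. An unadjusted limma p under 0.05 was found for 8 of the 20, close to that background.

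The smallest adjusted values in the windows were those of the broad regions and of weak regions seen in Gel alone. Spi1 region 6 differed by -857 bp, CuNZ@Gel minus Gel (SE 143), and Csf1r region 4 by -1347.5 bp (SE 196), each with a limma adjusted p of 0.0502. This was the smallest value of the whole fit and was shared by 6164 regions, or 14%, Spi1 regions 3 and 5 and Csf1r region 12 among them. Spi1 region 11 differed by -319 bp (SE 129, limma adjusted p = 0.146) and Spi1 region 2 by -340.5 bp (SE 116, limma adjusted p = 0.112). Tested only over regions with a peak in all 4 libraries, Spi1 region 6 and Csf1r region 4 passed, with limma adjusted p of 0.0421 and 0.0322, in a fit that called 17.6% of 21909 regions lower. In the same fit region 11 did not pass (limma adjusted p = 0.218). For log2 widths 7 of the 20 tested regions passed, Spi1 regions 3, 5 and 6 and Csf1r regions 4, 5, 6 and 12. In that fit limma called 29.3% of all regions lower. Of those passing, only Spi1 region 6 and Csf1r region 4 had any CuNZ@Gel peak. The others entered through their Gel peaks alone, so their passing is no support. With peaks at or above the median score of their list, 3 of 8 passed, Spi1 regions 3 and 6 and Csf1r region 1, where limma called 32.5% lower. Here too Spi1 region 3 and Csf1r region 1 had no CuNZ@Gel peak left and entered through Gel alone. Without limma's trend and robust options 2 of 20 passed, Spi1 region 6 and Csf1r region 4, where it called 7.87% lower.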

How the data were processed

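Peak lists of 4 H3ac immunoprecipitation libraries were used, 2 per treatment; the 4 input libraries were not analysed here. Per the labels' protocols, fixation took 10 min in 1% formaldehyde and shearing aimed at fragments of 150 to 350 bp. The submitters' processing notes name GRCm39, MACS2 2.2.8, deepTools 3.5.6, SAMtools 1.17 and fastp. How reads were aligned and with which options peaks were called was not given in the sources used here. Each deposited list has, per peak, a score, a fold enrichment ratio over background, and −log10 p and −log10 q values, called per library. The deposited score equals 10 times the −log10 q, cut to a whole number, for at least 99.9856% of peaks. Fold and score were used to describe, rank or filter within a list.

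Peaks on the 19 autosomes, X and Y were merged over libraries. Summit fragments and background were solved from the deposited fold and p at a relative tolerance of 0.0001, which succeeded for at least 99.9925% of the peaks of a list, and the solver was tested on simulated data. Covered widths were fitted in R 4.3.3 with limma 3.58.1, using its trend and robust options and Benjamini-Hochberg adjustment at 0.05, also tested on simulated data. Single values were compared by exact two-sided permutation over 6 assignments (scipy 1.17.1). Alternatives were a stricter score threshold, equal list length, equal depth (added after the data were seen), other units and scales, a replicate block, and each library left out. Every peak of both windows is named.

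The windows, regions and tests were chosen with earlier results of these data known. No annotation of GRCm39 was used. Genes of like pattern, other macrophage genes and markers of other cell types, planned by name, were therefore not analysed here. The cell type is taken from the labels, and peaks at these loci, which were chosen beforehand, do not test it. Neither gene matched the promoter sequence table, and no sequence is shown.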

Additional observations from a re-analysis of the deposited data

How the results depend on the processing

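Covered bases of both windows were lower in CuNZ@Gel in every setting run. The difference, CuNZ@Gel minus Gel, was between -5421.5 and -4279.5 bp at Spi1 and between -4480 and -2971 bp at Csf1r without any 1 library. At Spi1 it moved from -4850.5 to -3038.5 bp with equal list length and -3016 bp at the stricter threshold, and at Csf1r from -3725.5 to -1562 and -3250 bp. Equal depth, which gave -4372.5 and -3201.5 bp, scales summit fragments and background to the shallowest library and drops peaks that then miss its lowest −log10 p. It leaves the width of every remaining peak as deposited and so does not test depth's part in widths. Peak numbers did not keep their direction. At Spi1 the difference of -3 peaks became 2 at the stricter threshold and 2 with equal list length, and at Csf1r -3 became 2.5 with equal list length; without any 1 library it was -5.5 to -0.5 and -4.5 to -1.5. Regions narrower in both CuNZ@Gel libraries numbered 16321, 10821 at the stricter threshold, where fewer regions remained, and 18298 to 21441 without any 1 library.

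The limma count of regions depended on the setting. Lower and higher calls were 12903 and 268 for log2 widths, 3458 and 14 without trend and robust, 3860 and 13 for regions in all 4 libraries and 8251 and 47 at the stricter threshold. They were 0 and 0 with 4 kb bins (limma, 16254 with an unadjusted p under 0.05), with equal list length (11408) and at equal depth (16402). Leaving out 1 library gave 0 to 1577 lower and 0 to 6 higher, with calls where Gel replicate 1 (1564 and 4) or Gel replicate 2 (1577 and 6) was missing. Such fits assume that a lone library varies as the other group does. The cause was not tested.

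Spi1 region 6 passed for log2 widths, without trend and robust, for regions in all 4 libraries and at the stricter threshold, with limma adjusted p from 0.0257 to 0.0464, and Csf1r region 4 in the first 3 of these, with 0.0131 to 0.0464. Neither passed without any 1 library. Csf1r region 1 passed at the stricter threshold alone (-1266.5 bp, limma adjusted p = 0.0259), where it had no CuNZ@Gel peak left. Weak regions changed sign. Spi1 region 4 was 41 bp with equal list length and -282 to 139 bp without any 1 library, the highest without CuNZ@Gel replicate 1. Spi1 region 16 was -104 bp with 4 kb bins and -78 to 111 bp without any 1 library, the lowest without Gel replicate 1. Spi1 region 19 was 107.5 bp with 4 kb bins and -207.5 to 104 bp without any 1 library, the highest without CuNZ@Gel replicate 2. Csf1r region 13 was -161 to 65 bp without any 1 library, the highest without CuNZ@Gel replicate 2, and region 14 was -178.5 bp with 4 kb bins, which also hold neighbouring peaks.

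A replicate block by replicate number left limma with 0 lower and 0 higher regions (19344 with an unadjusted p under 0.05), and Spi1 region 6 had an adjusted p of 0.0604. The correlation of width deviations between same-numbered libraries was 0.0064 over regions. It cannot tell whether same-numbered libraries were prepared together. Regions without a peak in all 4 libraries had 10 to 27 fragments at their highest summit in a library.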

Other observations

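In the authors' deposited table for each group, which holds the stretches under a peak in both of its libraries, the Spi1 window had 11 intervals covering 13434 bp for Gel and 10 intervals covering 9058 bp for CuNZ@Gel. In the same authors' deposited table, the Csf1r window had 8 intervals covering 6571 bp for Gel and 5 covering 3974 bp for CuNZ@Gel. The widest Spi1 interval of the authors' deposited table was 3966 bp for Gel and 3345 bp for CuNZ@Gel, and the widest at Csf1r was 2740 and 2709 bp. The widest intervals at Csf1r thus differed less between groups than the region's covered widths in the libraries. Groups of 2 libraries were too small to ask whether a single library stands apart.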
